A study of Mus musculus with 16 samples.

Results

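The numbered zinc finger protein genes are the mouse genes whose symbol is Zfp followed by digits alone, and they were followed here in whole-uterus RNA-seq. Of 337 such symbols in the table, the RNA-binding Zfp36 was left out, 29 lay below a mean of 1 FPKM over the 16 libraries (3 of them at 0 in every library), and 307 were kept out of 31274 features in all. FPKM counts fragments scaled to transcript length and to library depth. The members were chosen by their mean level alone, so no level is a finding, and all 307 were above 0 in every library. Zfp850 at 1.22, Zfp365 at 1.14 and Zfp442 at 1.03 mean FPKM lay just inside the limit, and Zfp114 at 0.959, Zfp473 at 0.808 and Zfp941 at 0.801 just outside it.

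Most of these genes encode proteins with arrays of C2H2 zinc fingers, each of which folds around a zinc ion and contacts a few bases of DNA. In the largest class the fingers follow a KRAB box, which recruits the corepressor TRIM28 and through it the histone methyltransferase SETDB1, heterochromatin proteins and DNA methylation. KRAB zinc finger proteins are best known for silencing transposable elements and for keeping imprinted genes methylated. The genes expanded by local duplication and lie in chromosomal clusters. Other members without a KRAB box act as ordinary transcription factors, as parts of chromatin complexes or on RNA and ribosomes.

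The groups were PgrcrePgrBLsL/+ mice (PRB) given progesterone (P4), PRB mice given oil, PgrcrePgrALsL/+ mice (PRA) given P4 and PRA mice given oil, with 4 libraries each that the labels call biological replicates. All mice carried the Pgr-Cre driver, which acts in cells that express the progesterone receptor, and a Cre-activated transgene for isoform A or isoform B of that receptor, so the references were the other strain and the oil group, and mice lacking the transgene were not part of the samples analysed here. All were ovariectomized for 2 weeks and sampled 6 h after treatment, and the labels give housing with littermates until 8 weeks of age. The treatment field of the labels speaks instead of mating and day 4 of pregnancy, a conflict the data did not settle, and the row of the sample position differs between strains, with oil ahead of P4 within a row, so position, strain and treatment cannot be told apart.

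Uterine marker genes were all expressed. Summed epithelial markers (Krt8, Krt18, Epcam, Cdh1 and Foxa2) lay between 356 and 439 FPKM in PRA P4 and between 389 and 446 FPKM in PRA oil. In PRB this sum lay between 395 and 513 FPKM with P4 and between 397 and 449 FPKM with oil. Within it Krt8 rose in PRA (0.35) and PRB (0.28), while Krt18 (-0.63) and Epcam (-0.42) fell in PRA alone. Summed stromal markers lay between 613 and 692 FPKM in PRA P4 and between 423 and 482 FPKM in PRA oil. In PRB the stromal sum lay between 670 and 750 FPKM with P4 and between 471 and 583 FPKM with oil. Of the 5 stromal genes, Hoxa10, Hoxa11 and Col1a1 rose in both strains while Vim fell (-0.33 in PRA, -0.24 in PRB). The mesothelial sum lay between 68.4 and 95.6 FPKM in PRA P4 and between 120 and 131 FPKM in PRA oil, and the endothelial sum between 106 and 130 FPKM in PRB P4 and between 81.5 and 105 FPKM in PRA P4, with 2 of 4 endothelial genes higher in PRB. The part of these shifts in any result below was not tested, and in bulk tissue fewer cells of a type and less RNA per cell cannot be told apart. Pgr, the receptor gene itself, was higher in PRB than in PRA under P4 (0.57, limma, adjusted p = 0.00575), and with oil its difference of 0.36 was not called. It rose with P4 in PRB (0.39), with an uncalled 0.19 in PRA. Esr1, the estrogen receptor gene, fell by 0.35 in PRA and 0.8 in PRB, and these responses differed (-0.45, limma, adjusted p = 0.0457). The part of either receptor in the results below was not tested. PRB P4 replicate 3 stood apart, with 78.5 FPKM of Pgr, against 121 to 126 FPKM in the other 3 libraries of its group. Some results on that group are therefore also given without it. The low end of the values implied a depth of 59.8 M to 67.8 M fragments in the P4 libraries and 69.8 M to 75.2 M in the oil libraries. These depths put 107.6 to 131.6 fragments behind each FPKM of a transcript 2 kb long. Summed FPKM ran from 572846 to 595748 with P4 and from 499748 to 528785 with oil. Neither depth nor summed FPKM overlapped between the treatments, and their part in the results was not tested.

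By the proteins that the reference annotation predicts, 182 of the 307 members carried a KRAB box, 106 had C2H2 fingers without one, 17 had neither a KRAB box nor a finger of the classical spacing, and 2 had no annotated protein. Here and below only fingers of that classical spacing were counted, so fingers of other spacing are missed. The median number of fingers was 12 with a KRAB box and 7 without, and 13 members carried a SCAN box, a dimerization domain. Mean level ran from 1.03 FPKM to 89.9 FPKM, with a median of 9.80 against 15.8 FPKM over all 15408 features tested. The 10 highest were Zfp207, Zfp146, Zfp579, Zfp740, Zfp664, Zfp422, Zfp598, Zfp219, Zfp445 and Zfp503, and among them Zfp445 alone carries a KRAB box.

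The promoters of 5 members that the results turn on are shown first, as windows of 250 bases before to 50 bases after the first start listed by RefSeq (GRCm38.p6, the same coordinates as mm10). Zfp949 (chr9:88547770-88548069, plus strand) and Zfp57 (chr17:37003416-37003715, plus strand) fell and rose most with P4 in PRA. Zfp868 (chr8:69625499-69625798, minus strand) and Zfp964 (chr8:69654306-69654605, plus strand) are neighbours that differed between strains in opposite directions. Zfp423 (chr8:87959546-87959845, minus strand) differed most clearly in its P4 response. Capitals mark matches on either strand to GGGCGG, the GC box. No match to TGTTCT, the hormone receptor half-site, to the full palindromic hormone response element or to ACTACAA, the core of the site bound by Zfp143, lies in these 5 windows.
Zfp949: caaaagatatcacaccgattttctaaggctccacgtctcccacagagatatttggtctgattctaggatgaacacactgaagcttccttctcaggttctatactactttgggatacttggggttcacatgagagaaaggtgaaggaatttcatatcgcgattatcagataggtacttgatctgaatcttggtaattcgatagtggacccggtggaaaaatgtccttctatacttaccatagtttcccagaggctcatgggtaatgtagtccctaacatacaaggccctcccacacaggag
Zfp57: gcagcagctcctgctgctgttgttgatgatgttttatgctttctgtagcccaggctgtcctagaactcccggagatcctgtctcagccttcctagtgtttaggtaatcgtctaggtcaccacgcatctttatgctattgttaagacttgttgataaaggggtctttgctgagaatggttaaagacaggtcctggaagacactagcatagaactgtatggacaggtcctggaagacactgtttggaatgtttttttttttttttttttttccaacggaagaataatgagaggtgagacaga
Zfp868: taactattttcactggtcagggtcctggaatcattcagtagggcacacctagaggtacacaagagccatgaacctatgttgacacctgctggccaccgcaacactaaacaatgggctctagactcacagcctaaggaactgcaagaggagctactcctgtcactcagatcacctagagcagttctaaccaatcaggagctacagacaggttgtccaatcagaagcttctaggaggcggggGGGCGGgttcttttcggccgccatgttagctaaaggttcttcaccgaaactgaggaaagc
Zfp964: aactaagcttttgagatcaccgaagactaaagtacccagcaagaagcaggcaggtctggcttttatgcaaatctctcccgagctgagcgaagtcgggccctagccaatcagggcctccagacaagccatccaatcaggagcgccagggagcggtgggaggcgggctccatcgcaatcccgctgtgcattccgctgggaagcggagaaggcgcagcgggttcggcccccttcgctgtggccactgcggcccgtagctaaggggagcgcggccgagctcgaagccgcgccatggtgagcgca
Zfp423: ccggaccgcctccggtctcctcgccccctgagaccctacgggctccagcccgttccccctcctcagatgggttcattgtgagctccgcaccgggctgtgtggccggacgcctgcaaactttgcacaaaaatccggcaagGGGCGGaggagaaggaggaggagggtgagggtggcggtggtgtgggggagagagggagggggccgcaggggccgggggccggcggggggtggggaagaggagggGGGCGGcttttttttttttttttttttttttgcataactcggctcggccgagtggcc

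Over the 255 members with a promoter in the table, 41 (16.1%) held TGTTCT, against 19.0% of all 27025 promoters of the same length, counted on both strands. The full palindrome was in 0 of 255 member promoters and in 0.463% of all promoters. ACTACAA was in 18 (7.06%), against 3.45% of all promoters, and in 11 of the 113 promoters of members that fell with P4 in PRA (9.73%), 3 of the 55 of members that rose (5.45%) and 4 of the 87 of uncalled members (4.6%). GGGCGG was in 45.9%, against 35.9% of all promoters, with 37.5% of KRAB members and 59.1% of members without a KRAB box. TGTTCT can form part of the palindrome, and otherwise the motifs were counted apart. These shares are descriptions of the windows, with no test.

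With P4 about as many members without a KRAB box rose as fell, taken over all levels. At 10 FPKM or more that balance moved with the scaling. Many more KRAB members fell than rose, under every scaling at a mean of 10 FPKM or more and as deposited also below it. At 5 to 10 FPKM, though, the share of KRAB members that fell was close to that of all features of that level. The first question was how P4 changed the members within each strain, with all features fitted together by limma on log2(FPKM + 1) and a gene said to have risen or fallen where the Benjamini-Hochberg adjusted p was under 0.05. In PRA, 69 of 307 members rose and 134 fell, whereas 36.6% of all features tested rose and 33.2% fell (69.8% called in either direction). The members' shares were 22.5% and 43.6%. In PRB, 73 rose and 130 fell, whereas 36.2% of all features rose and 32.9% fell (69.1% called). The median log2 difference of the members was -0.11 in PRA and -0.10 in PRB, beside 0.01 and 0.00 over all features.

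The lower members were mostly KRAB genes. Of the 182 KRAB members, 24 rose and 94 fell in PRA (13.2% and 51.6%), and 26 rose and 91 fell in PRB (14.3% and 50%). Of the 123 members without a KRAB box, 45 rose and 40 fell in PRA, and 47 rose and 39 fell in PRB. These shares were close to those of all features when level was left aside. Of the 93 with a mean of 10 FPKM or more, 37.6% rose and 32.3% fell in PRA, beside 45.6% and 28.4% of all features of that level. In PRB 41.9% of them rose and 31.2% fell, beside 46.1% and 27.7%. The median log2 difference of KRAB members was -0.20 in PRA and -0.18 in PRB, and that of the other members 0.02 and 0.01. Per library, the median KRAB member lay between -0.11 and -0.04 (log2, around its mean over the 16 libraries) in PRA P4 and between 0.11 and 0.14 in PRA oil, so no library of one group reached the range of the other. In PRB it lay between -0.15 and -0.09 with P4 and between 0.04 and 0.10 with oil, again without overlap.

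**Figure D1:**
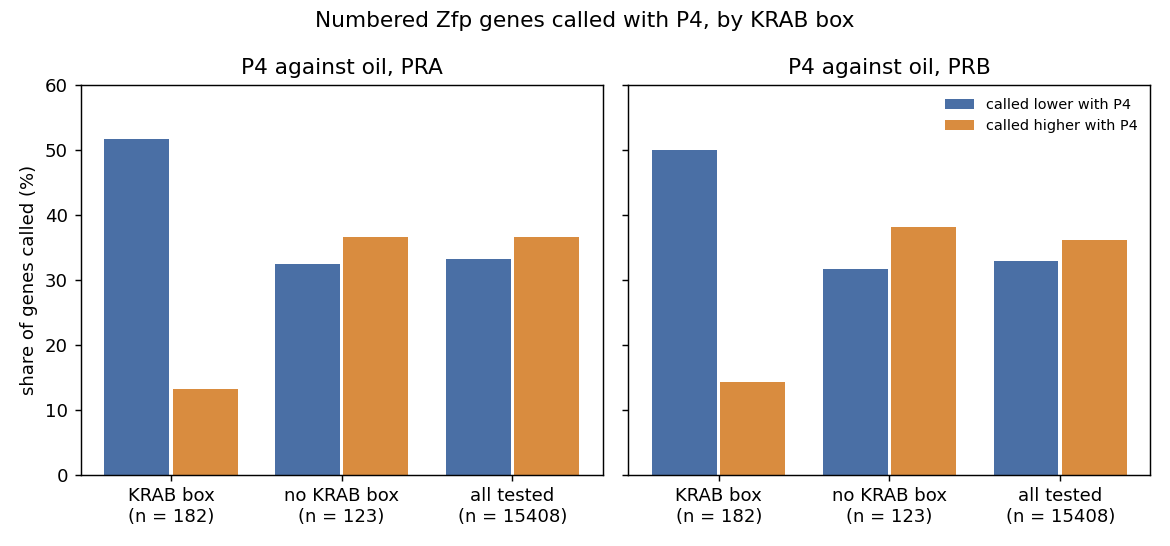
Share of genes (%) called lower (blue) or higher (orange) with P4 against oil in each strain, for members with a KRAB box, members without one and all features tested. About 50% of KRAB members were called lower in each strain, against about 33% of all features.

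Level moved with the direction of change over the whole table, and this bears on a class of low expression. Among all features with a mean of 1 to 5 FPKM, 17.8% rose and 41.0% fell in PRA, and among those of 10 FPKM or more 45.6% rose and 28.4% fell. At 1 to 5 FPKM, 9.38% of KRAB members rose and 57.8% fell in PRA. At 5 to 10 FPKM, 16.1% of KRAB members rose and 40.3% fell in PRA, beside 25.7% and 42.1% of all features. In PRB these shares at 5 to 10 FPKM were 17.7% and 38.7%, beside 23.8% and 42.4%. KRAB members of 10 FPKM or more still held 8 higher and 32 lower of 56 in PRA (14.3% and 57.1%) and 10 higher and 30 lower in PRB. After quantile normalization, which gives every library the same distribution of values, the KRAB counts were 40 higher and 68 lower in PRA and 45 higher and 69 lower in PRB, and their medians moved to -0.04 and -0.06, beside -0.03 and -0.01 for the members without a KRAB box. At 10 FPKM or more the KRAB counts after quantile normalization were 9 higher and 31 lower in PRA, with a median of -0.18, while all features of that level had 38.8% higher and 36.2% lower. Of the 93 members without a KRAB box at that level, 27 were then higher and 37 lower in PRA (29.0% and 39.8%). In PRB 29 were higher and 38 lower (31.2% and 40.9%), while all features of that level had 36.6% and 37.2%. Below 10 FPKM the KRAB medians lay between -0.02 and 0.02 under that scaling in both strains. The shift of KRAB members below 10 FPKM thus depended on the scaling.

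The KRAB counts were similar among genes that share little sequence with others. Of the 154 KRAB members that share under 20% of their transcript sequence with other genes, 24 rose and 84 fell in PRA, and 25 rose and 78 fell in PRB. For near copies the level of each copy is uncertain: all of Zfp708 is shared with another gene model, and Zfp808 and Zfp934 share about 40.4% and 38.1% of their sequence with other genes, mainly each other.

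The same members moved in both strains for the most part. The comparisons in PRA and in PRB share no library, but they share the estimate of each gene's spread, so their calls are not independent. In all, 62 members rose in both (20.2%, beside 32.0% of all features) and 117 fell in both (38.1%, beside 28.0%). A further 82 were called in neither (beside 21.3%) and 2 were called in opposite directions (beside 0.273%). Of the KRAB members 20 rose in both and 83 fell in both. Changes of at least 1 on the log2 scale were few: 3 members rose and 8 fell by that much in PRA, where 6.94% and 7.28% of all features did, and 6 rose and 6 fell in PRB, where 7.17% and 6.52% did.

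**Figure D2:**
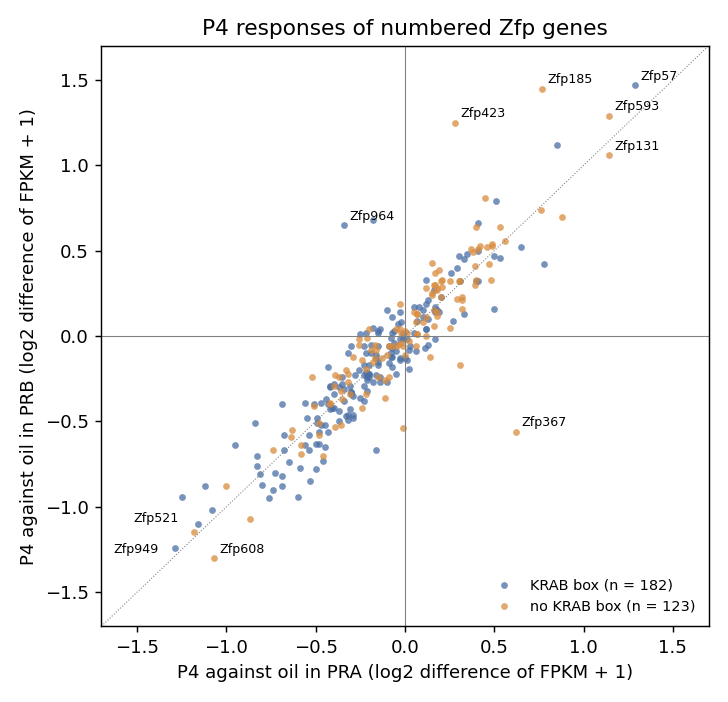
Log2 difference of P4 against oil in PRA (horizontal) and in PRB (vertical) for each member, with KRAB members in blue and members without a KRAB box in orange. The dotted line marks equal responses, and Zfp423 (1.25 in PRB, 0.28 in PRA), Zfp964 (0.65 in PRB, -0.34 in PRA) and Zfp367 (-0.56 in PRB, 0.62 in PRA) lie far from it.

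Zfp949, a KRAB gene with 11 fingers, fell most in PRA. It stood at 5.23, 6.25, 5.32 and 6.24 FPKM in PRA P4, against 16.7, 15.7, 17.2 and 12.7 FPKM in PRA oil. In PRB it stood at 6.04, 5.64, 6.79 and 5.21 FPKM with P4, against 15, 16.4, 15.5 and 14.1 FPKM with oil. Every P4 library lay below every oil library in both strains. The log2 difference was -1.29 ± 0.09 (SE) in PRA (limma, adjusted p = 1.97e-08) and -1.24 ± 0.09 in PRB (limma, adjusted p = 2.9e-08).

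Other KRAB genes fell by similar amounts. Zfp811, with 13 fingers, averaged 1.92 ± 0.241 FPKM in PRA P4 and 5.94 ± 0.664 FPKM in PRA oil (SD, n = 4 each), a log2 difference of -1.25. Zfp945, with 18 fingers, averaged 3.47 ± 0.167 FPKM in PRA P4 and 8.97 ± 0.754 FPKM in PRA oil, and its differences were -1.16 in PRA and -1.10 in PRB. Groups did not overlap for either gene. Zfp30 (-1.12 in PRA, -0.88 in PRB), Zfp641 (-1.08, -1.02), Zfp707 (-0.95, -0.64), Zfp688 (-0.76, -0.95), Zfp184 (-0.74, -0.90) and Zfp808 (-0.60, -0.94) completed the KRAB genes among the 10 largest falls of either strain, all called in both strains.

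A few KRAB genes rose against the trend of their class. Zfp57 keeps imprinted regions methylated by binding a methylated motif and recruiting TRIM28. It stood at 19.6, 20.9, 26.4 and 23.0 FPKM in PRA P4, against 6.44, 11.5, 6.27 and 11.3 FPKM in PRA oil. In PRB it stood at 20.1, 29.7, 41.6 and 27.6 FPKM with P4, against 10.2, 7.86, 11.9 and 9.53 FPKM with oil. The groups did not overlap in either strain, and PRB P4 replicate 3 held the highest value. The log2 difference was 1.29 ± 0.22 in PRA (limma, adjusted p = 9.44e-05) and 1.47 ± 0.22 in PRB (limma, adjusted p = 2.78e-05), and the call held under all 22 alternatives in both strains.

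Zfp324 rose to 11.3 ± 1.06 FPKM in PRA P4, against 5.81 ± 0.522 FPKM in PRA oil (0.85), and to 13.9 ± 0.495 FPKM in PRB P4, against 5.88 ± 0.505 FPKM in PRB oil (1.12). Zfp961 (0.78 in PRA, 0.42 in PRB), Zfp786 (0.65, 0.52) and Zfp213 (0.51, 0.79), which carries a SCAN box beside its KRAB box, also rose in both strains. These 5 genes were the KRAB members among the 10 largest rises of either strain.

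**Figure D3:**
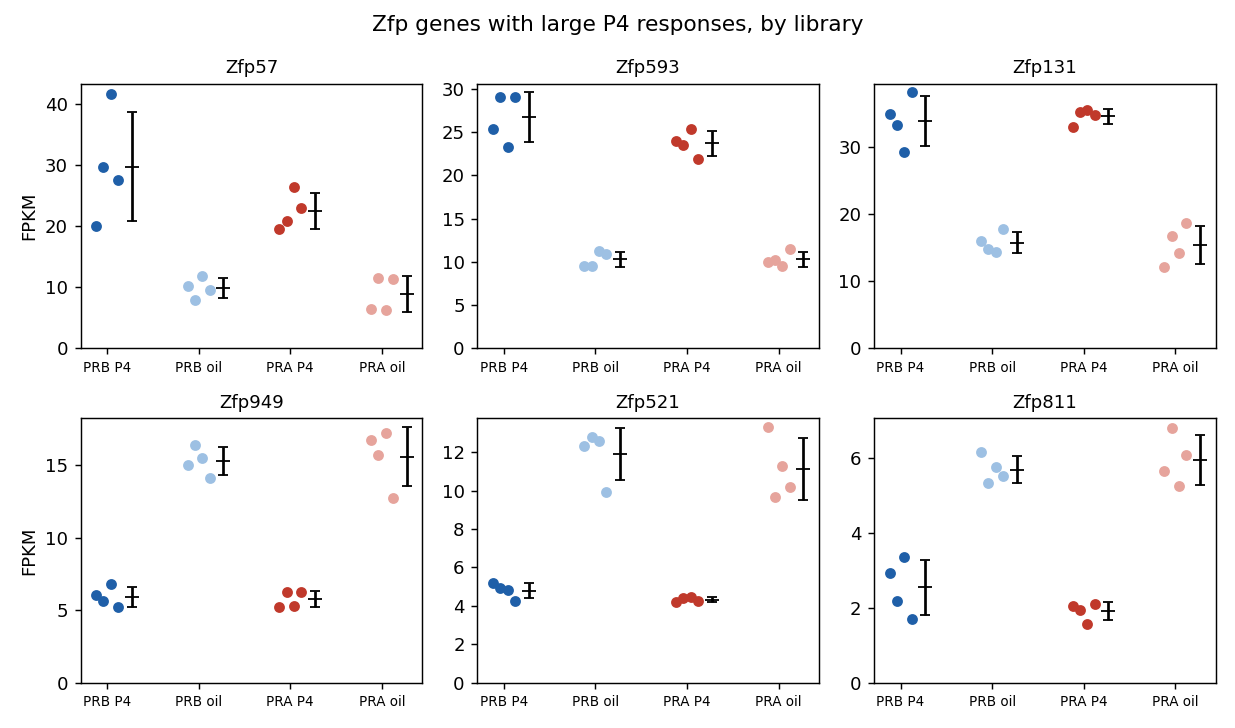
FPKM in each library for 3 members that rose with P4 (upper row) and 3 that fell (lower row), with points for libraries and bars for the mean ± SD of 4 libraries. Zfp949 lay between 5.21 and 6.79 FPKM with P4 and between 12.7 and 17.2 FPKM with oil, and no P4 group overlapped its oil group.

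The members without a KRAB box held several of the largest rises. Zfp593, whose yeast relative Bud20 acts in export of the large ribosomal subunit precursor, stood at 24.0, 23.5, 25.4 and 21.9 FPKM in PRA P4, against 9.91, 10.2, 9.49 and 11.5 FPKM in PRA oil. In PRB it averaged 26.7 ± 2.89 FPKM with P4 and 10.3 ± 0.877 FPKM with oil. All P4 libraries were above all oil libraries, and the differences were 1.14 ± 0.08 in PRA (limma, adjusted p = 1.57e-08) and 1.29 ± 0.08 in PRB (limma, adjusted p = 4.36e-09). Zfp259, also known as Zpr1, a partner of the translation factor eEF1A, rose by 0.76 in PRA and 0.74 in PRB. Zfp330, which encodes the nucleolar protein NOA36, rose by 0.45 and 0.81.

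The BTB zinc finger gene Zfp131, whose human counterpart has been reported to restrain estrogen receptor signalling, rose to 34.6 ± 1.14 FPKM in PRA P4, against 15.4 ± 2.87 FPKM in PRA oil. In PRB it averaged 33.9 ± 3.69 FPKM with P4 and 15.7 ± 1.55 FPKM with oil, and groups did not overlap in either strain (1.14 and 1.06). Zfp185, a LIM protein of the actin cytoskeleton on the X chromosome, varied most among its PRB P4 libraries, at 25, 14.6, 18.2 and 10.4 FPKM, against 4.44, 6.97, 6.08 and 4.22 FPKM in PRB oil. All P4 values were still above all oil values, and it rose by 0.77 in PRA and 1.45 in PRB. Zfp428 rose by 0.88 and 0.70.

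In the list of genes that act on RNA, ribosomes and the spindle, 5 of 7 members rose and 1 fell in each strain, beside 45.6% and 46.1% higher and 28.4% and 27.7% lower among all features of 10 FPKM or more in PRA and PRB. Zfp598, the ubiquitin ligase that marks collided ribosomes, averaged 60.7 ± 2.62 FPKM in PRA P4 and 43.1 ± 1.77 FPKM in PRA oil (0.49, and 0.54 in PRB). The RNA-binding Zfp106 rose by 0.56 in both strains, Zfp706 by 0.48 and 0.33, and Zfp326, a subunit of the DBIRD complex that links transcription to splicing, by 0.20 and 0.23. The call of Zfp326 was lost after quantile normalization in both strains (adjusted p of 0.233 and 0.205) and in PRA also without PRA oil replicate 1 or PRA P4 replicate 2. Zfp207, which encodes the spindle protein BuGZ and is the most expressed member, rose by 0.16 and 0.15, but after quantile normalization its differences were -0.07 and -0.12, and the call in PRB was lost without PRB oil replicate 3 or PRB P4 replicate 4. Zfp346, which binds double-stranded RNA, fell by 0.31 and 0.34. Zfp622, a late factor of the large ribosomal subunit, had differences of -0.05 and 0.04 and was not called.

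The list of mesenchymal and fat cell fate genes held 1 higher and 4 lower of 7 in PRA, and 2 higher and 4 lower in PRB, beside 36.6% and 36.2% higher and 33.2% and 32.9% lower of all features. Zfp521, which restrains fat cell formation, stood at 4.2, 4.41, 4.44 and 4.28 FPKM in PRA P4, against 13.3, 9.69, 11.3 and 10.2 FPKM in PRA oil. It averaged 4.80 ± 0.386 FPKM in PRB P4 and 11.9 ± 1.34 FPKM in PRB oil. Groups were far apart in both strains, with differences of -1.18 ± 0.09 (limma, adjusted p = 4.3e-08) and -1.15 ± 0.09 (limma, adjusted p = 5.38e-08). Zfp467, which promotes fat over bone cell formation, averaged 21.2 ± 3.24 FPKM in PRA P4 and 43.3 ± 3.68 FPKM in PRA oil (-1.0, and -0.88 in PRB). Zfp395 fell by 0.87 and 1.07.

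Zfp503 and Zfp703 encode relatives that act as transcriptional repressors without a classical finger array, and they did not move together. Zfp503 averaged 40.2 ± 2.10 FPKM in PRA P4 and 55.9 ± 3.88 FPKM in PRA oil, and fell by 0.46 in PRA and 0.70 in PRB. Zfp703 averaged 44.8 ± 6.10 FPKM in PRB P4 and 32.9 ± 1.90 FPKM in PRB oil and rose by 0.43, while its difference of 0.15 in PRA was not called. For both genes PRB P4 replicate 3 lay further from oil than the rest of its group. It held Zfp503 at 23.2 FPKM, against 36.0 to 36.7 FPKM in the rest, and Zfp703 at 53.9 FPKM, against 40.7 to 42.5 FPKM. The PRB calls of both genes held under all 22 alternatives. Zfp516, a factor of brown fat, had differences of 0.07 and 0.13 and was called in neither. Beside this list, the summed fat markers Adipoq, Plin1 and Fabp4 lay between 66.6 and 198 FPKM in PRA P4 and between 60.6 and 476 FPKM in PRA oil, with 0 of 3 called in either strain, and the part of fat tissue in these values was not tested. Zfp608, a repressor of Rag genes in mouse thymocytes that is on neither list, averaged 8.57 ± 0.345 FPKM in PRB P4 and 22.6 ± 2.27 FPKM in PRB oil (-1.30, and -1.07 in PRA).

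Of 9 listed genes for imprint and retroelement silencing, 7 were members, and 2 of them rose and 0 fell in PRA, while 2 rose and 1 fell in PRB. Over all features 36.6% rose and 33.2% fell in PRA, and 36.2% rose and 32.9% fell in PRB. Beside Zfp57, Zfp568, which silences a placental promoter of Igf2, rose by 0.40 in PRA and 0.32 in PRB. Zfp445, the other imprint regulator, averaged 49.3 ± 1.81 FPKM in PRA P4 and 48.7 ± 1.86 FPKM in PRA oil, with a difference of 0.02 (95% interval -0.08 to 0.12). In PRB it averaged 43.5 ± 2.98 FPKM with P4 and 46.0 ± 0.705 FPKM with oil, with a difference of -0.08 (95% interval -0.18 to 0.02). Under P4 it was lower in PRB than in PRA (-0.18, limma, adjusted p = 0.0207). After quantile normalization its P4 differences were -0.18 in PRA and -0.31 in PRB, both called, and without PRB P4 replicate 4 the PRB difference of -0.12 was called. Zfp809, which silences murine leukaemia proviruses, had differences of 0.12 and 0.04, and Zfp932, with 45.2% of its sequence shared with other genes, -0.16 and -0.23. Zfp708 fell by 0.18 in PRB, the single fall of the list, and stood at 0.02 there after quantile normalization.

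Zfp429 could not be read as 1 level per group. It stood at 0.517, 3.01, 3.23 and 2.78 FPKM in PRB P4, against 3.33, 0.509, 0.536 and 0.452 FPKM in PRB oil, and at 4.83, 5.23, 4.37 and 2.58 FPKM in PRA P4, against 6.07, 3.71, 6.46 and 3.59 FPKM in PRA oil. In PRB, 4 libraries lay near 0.5 FPKM and 4 near 3 FPKM, with both kinds in both treatments. No comparison of it was called.

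Of 17 corepressor genes measured, 11 rose and 1 fell in PRA (64.7% and 5.88%), and 8 rose and 3 fell in PRB (47.1% and 17.6%). Of all features with a mean of 10 FPKM or more, 45.6% rose and 28.4% fell in PRA, and 46.1% rose and 27.7% fell in PRB, so the share that rose in PRB was close to that of all genes of such a level. Trim28, the corepressor itself, averaged 107 ± 5.54 FPKM in PRA P4 and 63.8 ± 6.17 FPKM in PRA oil (0.74), and 101 ± 11.9 FPKM in PRB P4 and 68.6 ± 6.28 FPKM in PRB oil (0.54). Hdac2, a histone deacetylase, rose by 0.77 and 0.68, and Pphln1, the periphilin gene of the HUSH complex, by 0.70 and 0.65. Setdb1, the methyltransferase, rose by 0.13 and 0.17, and Atrx, a chromatin remodeller, fell by 0.12 and 0.19. Uhrf1 and Dnmt1, which copy DNA methylation at replication, had uncalled differences of -0.30 and 0.06 in PRB and rose by 2.09 and 0.78 in PRA. The difference of the responses itself was not called (limma, adjusted p = 0.0905 for Uhrf1 and 0.0781 for Dnmt1). Under P4, however, both were lower in PRB than in PRA: Uhrf1 (-2.05, limma, adjusted p = 0.013) and Dnmt1 (-0.63, limma, adjusted p = 0.00888). With oil their strain differences of 0.34 and 0.09 were not called.

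The list of chromatin complexes and SUMO held 2 higher and 4 lower of 10 in PRA, and 3 higher and 4 lower in PRB. All features had 36.6% higher and 33.2% lower in PRA, and 36.2% and 32.9% in PRB. Among all features of 10 FPKM or more, the level of most of the list, 45.6% rose and 28.4% fell in PRA, and 46.1% and 27.7% in PRB. Zfp217, which works with CtBP and the demethylase LSD1, averaged 11.4 ± 0.744 FPKM in PRA P4 and 17.6 ± 0.265 FPKM in PRA oil (-0.58, and -0.69 in PRB). Within the group that binds ZMYND8, Zfp592 rose by 0.40 and 0.64, Zfp532 fell by 0.24 and 0.42, and Zfp687 fell by 0.13 in each strain, a call that was lost under 8 of 22 alternatives in PRA and 10 of 22 in PRB. Zfp451, a SUMO ligase, had differences of 0.07 and 0.01 and was not called.

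In the list of factors of GC-rich promoters and chromatin looping, 2 of 5 members rose and 1 fell in PRA, and 3 rose and 1 fell in PRB. Over all features 36.6% rose and 33.2% fell in PRA, and 36.2% and 32.9% in PRB. Zfp148 rose by 0.32 and 0.16 and its close relative Zfp281 by 0.31 and 0.32. Zfp384 rose by 0.13 in PRB, with an uncalled difference of 0.07 in PRA, and after quantile normalization stood at -0.09 in PRA and -0.08 in PRB. Zfp219 fell by 0.39 and 0.23, and its groups overlapped in PRB, where the call was lost with the PRB libraries fitted alone and without PRB oil replicate 1, PRB oil replicate 2, PRB P4 replicate 1 or PRB P4 replicate 3 (adjusted p up to 0.123). Zfp143, an activator bound at many promoters, had differences of 0.10 and 0.08 and was not called. Of the 4 nuclear receptor partners, 0 rose and 1 fell in each strain, Zfp764, a glucocorticoid receptor partner in human cells, by 0.22 and 0.21, a call lost in PRB after quantile normalization (adjusted p = 0.0513).

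The 5 uncalled members with the narrowest intervals were Zfp445, Zfp451, Zfp426, Zfp768 and Zfp472. Apart from Zfp451, each gained a call under some alternative, Zfp426 under 3 of 22 in PRB (-0.12 after median-ratio scaling), Zfp768 in PRB without PRB P4 replicate 3 and Zfp472 in both strains after quantile normalization (0.15 and 0.12). Zfp472, a KRAB gene, averaged 10.1 ± 0.345 FPKM in PRA P4 and 9.76 ± 0.278 FPKM in PRA oil, and 9.59 ± 0.392 FPKM in PRB P4 and 9.43 ± 0.578 FPKM in PRB oil. Its differences were 0.05 and 0.02.

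The members lie in clusters, and 20 clusters of at least 4 members with gaps of at most 1000000 bp were found. The largest, on chromosome 17 (chr17:21008941-23599755), holds 20 KRAB members with Zfp945 and Zfp213 among them, of which 3 rose and 11 fell in PRA and 4 rose and 12 fell in PRB. In a second cluster of that chromosome (chr17:32765496-33631716), which holds Zfp811, 0 of 11 members rose and 8 fell in PRA, and 0 rose and 7 fell in PRB. These shares stand beside 33.2% of all features and 51.6% of KRAB members that fell in PRA, and 32.9% and 50% in PRB. Of 17 KRAB members on chr13:67038594-67827000, 1 rose and 7 fell in PRA and 1 rose and 8 fell in PRB. Direction was mixed within most clusters: 4 of 15 members rose and 6 fell in PRA on chr7:29768552-30169775, where Zfp568 and Zfp146 rose and Zfp14 and Zfp30 fell. The rise of Zfp146 was not called after quantile normalization (0.06 in PRA, 0.03 in PRB).

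Other zinc finger families were counted for comparison. Of 21 genes with a Zfp number and a letter, 5 rose and 10 fell in PRA and 4 rose and 10 fell in PRB. Of 10 Zkscan genes, 1 rose and 6 fell in PRA and 1 rose and 7 fell in PRB, and of 9 Zscan genes 1 rose and 5 fell in PRA and 2 rose and 5 fell in PRB. Of 40 Zbtb genes, 12 rose and 11 fell in PRA and 15 rose and 11 fell in PRB. Of 17 Zc3h genes, whose fingers bind RNA, 9 rose and 3 fell in PRA and 9 rose and 4 fell in PRB. Of 14 Klf genes 2 rose and 5 fell in each strain, and of 6 Sp genes 1 rose and 2 fell in PRA and 1 rose and 3 fell in PRB. All features had 36.6% higher and 33.2% lower in PRA, and 36.2% higher and 32.9% lower in PRB. No difference between these families and the members was tested.

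The next question was where the strains differed. Under P4, 15 members were higher in PRB than in PRA and 30 were lower (4.89% and 9.77%), whereas 7.75% of all features were higher and 8.29% lower. Of the KRAB members 5 were higher and 21 lower. These counts moved with single libraries: the lower count was 13 without PRA P4 replicate 2 or without PRA P4 replicate 4, 16 without PRA P4 replicate 3 and 17 without PRB P4 replicate 2, and the higher count was 8 without PRA P4 replicate 4 and 10 without PRA P4 replicate 2 or PRB P4 replicate 2. Without PRB P4 replicate 3, the library of low Pgr, 21 were higher and 38 lower. The lower count was also 16 after quantile normalization and 15 with the P4 libraries fitted alone. The 10 members of smallest adjusted p kept their call under all 22 alternatives.

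With oil, 1 member was higher in PRB and 1 lower, whereas 0.0389% and 0.0779% of all features were, that is 6 and 12. The responses to P4 differed for 4 members, 3 with a higher response in PRB and 1 with a lower one, whereas 1.47% and 0.811% of all features did.

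Zfp423 showed the clearest difference in response. It encodes a protein with 27 fingers of classical spacing that works with BMP-activated SMAD factors and commits mesenchymal cells to the fat lineage. It stood at 12.8, 11.9, 12.4 and 14.6 FPKM in PRB P4, against 5.14, 4.19, 4.38 and 5.69 FPKM in PRB oil. In PRA it stood at 5.98, 5.34, 6.12 and 6.15 FPKM with P4, against 4.61, 4.79, 4.39 and 4.89 FPKM with oil. All P4 libraries of PRB were above every other library, and the P4 libraries of PRA were above the oil libraries of PRA by a smaller step. It rose by 1.25 ± 0.08 in PRB and 0.28 ± 0.08 in PRA, and the responses differed by 0.97 ± 0.12 (limma, adjusted p = 0.000723). Its paralog Zfp521 fell in both strains.

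Zfp330 stood at 40, 45, 43.9 and 43.5 FPKM in PRB P4, against 23.0, 25.1, 23.6 and 24.6 FPKM in PRB oil. In PRA it stood at 31.0, 31.2, 31.2 and 33.7 FPKM with P4, against 21.7, 23.5, 24.2 and 22.5 FPKM with oil. The 3 sets of values, PRB P4, PRA P4 and all oil libraries, did not overlap, and the responses differed by 0.36 ± 0.07 (limma, adjusted p = 0.0141). It shares 19.1% of its transcript with other genes.

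Zfp964 and Zfp367 were the members called in opposite directions. Zfp964, a KRAB gene of 9 fingers, stood at 5.81, 4.69, 7.06 and 4.69 FPKM in PRB P4, against 3.67, 2.71, 3.09 and 3.09 FPKM in PRB oil. In PRA it stood at 1.99, 1.94, 1.62 and 3.01 FPKM with P4, against 3.11, 2.77, 2.92 and 2.87 FPKM with oil. PRB P4 was above all other libraries, whereas PRA P4 and PRA oil overlapped through PRA P4 replicate 4. The rise in PRB was 0.65 ± 0.13 (limma, adjusted p = 0.000467) and the fall in PRA 0.34 ± 0.13 (limma, adjusted p = 0.0344), and the responses differed by 0.99 ± 0.19 (limma, adjusted p = 0.015). The fall in PRA lost its call under 8 of 22 alternatives, among them leaving out any of PRA oil replicates 1, 3 and 4 or PRA P4 replicates 1, 2 and 3, while the difference of the responses kept it under all 21 fitted.

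Zfp367 stood at 6.44, 5.17, 3.82 and 5.91 FPKM in PRB P4, against 7.30, 6.70, 9.98 and 9.31 FPKM in PRB oil. In PRA it stood at 10.1, 15.9, 13.1 and 16.8 FPKM with P4, against 7.56, 9.13, 7.16 and 11 FPKM with oil. PRB P4 lay below every other library, and PRA P4 overlapped PRA oil through PRA P4 replicate 1. It fell by 0.56 ± 0.18 in PRB (limma, adjusted p = 0.0116) and rose by 0.62 ± 0.18 in PRA (limma, adjusted p = 0.0062), with a difference of the responses of -1.18 ± 0.25 (limma, adjusted p = 0.0273). That difference lost its call, with an adjusted p of up to 0.0653, without any of PRA oil replicates 1 and 3, PRA P4 replicates 2 and 4, PRB oil replicates 3 and 4 or PRB P4 replicate 2. Mki67, a marker of dividing cells, varied beside it, at 4.16, 5.03, 0.884 and 7.24 FPKM in PRB P4 and at 6.96, 6.71, 7.14 and 10.8 FPKM in PRA P4. With oil it stood at 5.17, 3.13, 7.85 and 9.5 FPKM in PRB and at 1.52, 7.52, 1.44 and 11.2 FPKM in PRA. No comparison of Mki67 was called, and its part in the Zfp367 difference was not tested.

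**Figure D4:**
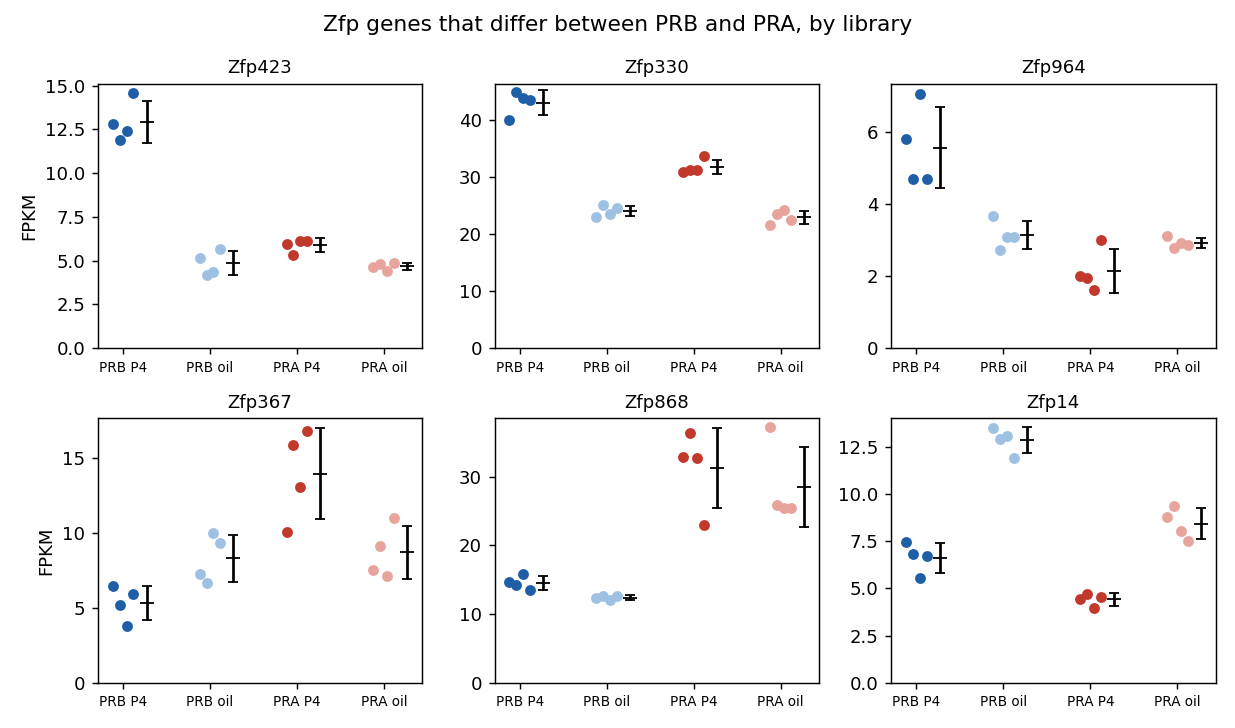
FPKM in each library for the 4 members whose P4 responses differed between strains and for Zfp868 and Zfp14, which differed between strains with oil, with points for libraries and bars for the mean ± SD of 4 libraries. Zfp423 lay between 11.9 and 14.6 FPKM in PRB P4 and below 6.2 FPKM in all other libraries.

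Zfp868 and Zfp14 differed between the strains whatever the treatment. Zfp868, a KRAB gene of 9 fingers, stood at 12.3, 12.6, 12 and 12.7 FPKM in PRB oil, against 37.2, 25.8, 25.5 and 25.5 FPKM in PRA oil. Under P4 it stood at 14.6, 14.2, 15.9 and 13.5 FPKM in PRB, against 32.9, 36.4, 32.7 and 23.0 FPKM in PRA. Every PRB library lay below every PRA library, and it was not called with P4 in either strain (0.21 in PRB, 0.13 in PRA). The PRB minus PRA difference was -1.12 ± 0.13 with oil (limma, adjusted p = 0.00275) and -1.04 ± 0.13 under P4 (limma, adjusted p = 0.000203), and it kept its call under all 22 alternatives.

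Zfp14, a KRAB gene of 13 fingers, stood at 13.5, 12.9, 13.1 and 11.9 FPKM in PRB oil, against 8.78, 9.38, 8.05 and 7.51 FPKM in PRA oil. Under P4 it stood at 7.44, 6.84, 5.53 and 6.71 FPKM in PRB, against 4.43, 4.73, 3.97 and 4.54 FPKM in PRA. It fell with P4 in both strains (-0.87 in PRB, -0.80 in PRA) and was higher in PRB within each treatment, by 0.56 ± 0.08 with oil (limma, adjusted p = 0.0122) and 0.49 ± 0.08 under P4 (limma, adjusted p = 0.00164). The difference with oil lost its call without PRA oil replicate 3, PRB oil replicate 2 or PRB oil replicate 3 and with the oil libraries fitted alone, where adjusted p reached 0.0921.

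The neighbours of these genes were read in turn. Zfp868 lies in a cluster of 6 KRAB members (chr8:69209018-69774911), beside Zfp964. Of the 5 tested genes on each side, 1 was called with oil, Ints10, a subunit of the Integrator complex, at -0.33 with 12.4 FPKM in PRB and 15.9 FPKM in PRA. Under P4, 6 of the 10 were called, where 16% of all features tested and 22.8% of those on chromosome 8 were, among them Zfp964 (1.07), Zfp869 (0.42), Zfp930 (-0.27) and Ints10 (-0.42). Higher and lower genes stood side by side. Around Zfp14 (chr7:30036357-30051396), 0 of 10 neighbours were called with oil or under P4. Around Zfp330, 4 of 10 were called under P4, all higher in PRB: Il15 (0.76), Rnf150 (0.63), Tbc1d9 (0.32) and Scoc (0.6). Around Zfp808 and around Zfp934, on chromosome 13, 5 of 10 were called under P4, where 19.7% of features on that chromosome were. The stretches read around these near copies overlap, so their counts are not separate results. The counts were 4 of 10 around Zfp41 and Zfp148, 3 around Zfp367 and 2 around Zfp423. Around Zfp330 and these other genes, 0 of 10 were called with oil.

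**Figure D5:**
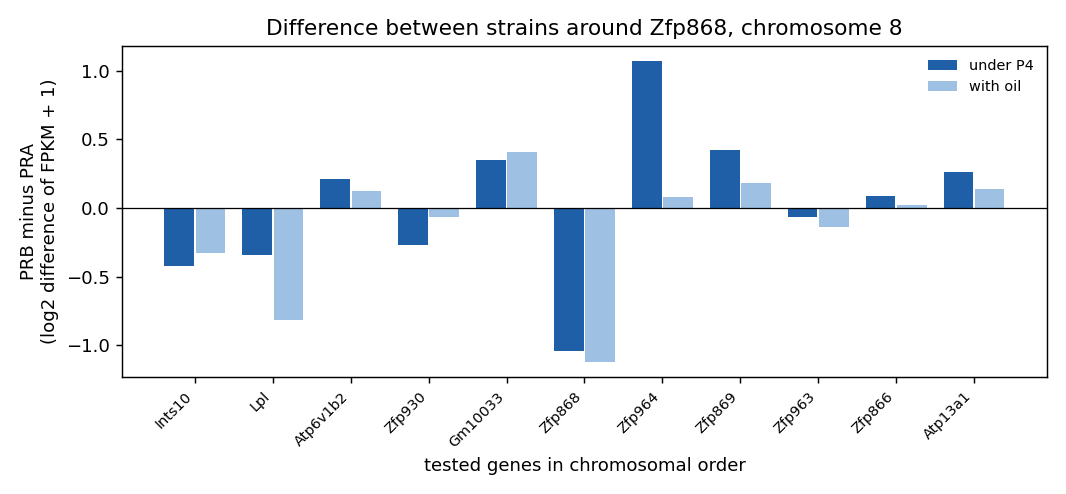
PRB minus PRA log2 difference under P4 (dark) and with oil (light) for Zfp868 and the 5 tested genes on each side of it in chromosomal order. Zfp868 is lower by 1.04 and 1.12, and Zfp964 beside it is higher by 1.07 under P4 alone.

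The other members named for a strain difference under P4 were lower in PRB. Zfp934 averaged 2.65 ± 0.194 FPKM in PRB P4 and 4.50 ± 0.860 FPKM in PRA P4 (-0.58), and its near copy Zfp808 2.22 ± 0.0388 FPKM in PRB P4 and 3.36 ± 0.565 FPKM in PRA P4 (-0.43). Zfp41 averaged 10.4 ± 0.497 FPKM in PRB P4 and 16 ± 2.48 FPKM in PRA P4 (-0.57). Zfp148 differed by little but evenly, at 14.5 ± 0.378 FPKM in PRB P4 and 16.9 ± 0.567 FPKM in PRA P4 (-0.21). With oil these 4 genes had differences between -0.10 and -0.04, none of them called, and the difference of their P4 responses was not called (limma, adjusted p between 0.0698 and 0.166).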

How the data were processed

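Whole-uterus RNA-seq gave 16 libraries, 4 in each of 4 groups named by the titles. The authors deposited a table of FPKM values. Per the submitters' processing notes, the tools were Cuffdiff, Cufflinks 2.0.2 and TopHat2 2.0.4, with build mm10, in no stated role or order. Annotation, strandedness and scaling are not given in the sources, so genes that overlap on opposite strands may share reads.

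The 15408 features averaging 1 FPKM or more were compared on log2(FPKM + 1), which understates the change of low genes, with limma 3.58.1 in R 4.3.3: 1 mean per group over all 16 libraries, a two-sided moderated test with a trend on intensity, Benjamini-Hochberg adjustment over all features tested, called under 0.05. There were 5 comparisons: P4 against oil in PRA and in PRB, PRB against PRA under P4 and with oil, and the difference of the P4 responses. SE is from the fit and SD is over 4 libraries. Nothing in the labels says that the replicates were separate animals beyond calling them biological replicates. Simulated data with known changes were used to test the procedure. They held changes in few features and in 1 group at a time, so they cannot check the scaling where most features move.

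Genes were named by a fixed rule: the 10 largest rises and falls per strain among called members with non-overlapping groups, up to 10 called members per strain comparison, the 10 highest members, 6 role lists, a corepressor list, members at the level limit, the 5 narrowest uncalled members, and 5 neighbours on each side. Zfp429 is among the role lists. Members and lists were chosen with earlier results of these data known. KRAB and SCAN boxes (pyhmmer 0.12.3, E-value under 0.001) and fingers were found in proteins translated from GENCODE M21 coding sequences, promoters in RefSeq windows, and shared sequence in transcripts. Alternatives were a pseudocount of 0.1, no level filter, median-ratio scaling, quantile normalization, the libraries of a contrast alone, a replicate block and leaving out each library, 22 in all. The split by KRAB box was added after the data had been seen.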

Additional observations from a re-analysis of the deposited data

Results flagged for a closer look

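In groups of 4 libraries, 16 values of named members stood apart from the other 3 by Dixon's criterion, out of 308 groups looked at (304 of the 76 named members and 4 of the members' median), and chance flags about 1 group in 20. PRB P4 replicate 3 held 3 of them: Zfp503 at 23.2 FPKM, Zfp809 at 29.0 FPKM and Zfp703 at 53.9 FPKM. In the other P4 libraries Zfp451 stood at 16.6 FPKM in PRB P4 replicate 4, Zfp442 at 0.653 FPKM in PRB P4 replicate 2, Zfp330 at 33.7 FPKM in PRA P4 replicate 4 and Zfp764 at 10.4 FPKM in PRA P4 replicate 3.

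Zfp429 was set apart in both PRB groups, at 0.517 FPKM in PRB P4 replicate 1 and at 3.33 FPKM in PRB oil replicate 1, in opposite directions. Among PRB oil libraries Zfp106 stood at 31.2 FPKM in replicate 1, Zfp442 at 0.93 FPKM in replicate 2, and Zfp961 at 17.2 FPKM and Zfp592 at 18.6 FPKM in replicate 3. Among PRA oil libraries Zfp868 stood at 37.2 FPKM in replicate 1, Zfp324 at 5.03 FPKM in replicate 2 and Zfp786 at 0.933 FPKM in replicate 3. The cause of these values was not tested.

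The P4 responses of 4 members differed between the strains by the test of the difference itself (PRB minus PRA, limma, adjusted over all features): Zfp423 by 0.97, Zfp964 by 0.99, Zfp330 by 0.36 and Zfp367 by -1.18 on the log2 scale.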

How the results depend on the processing

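The members called with P4 kept their counts within 1.5 times under all 22 alternatives in both strains. Leaving out a library gave 63 to 70 higher and 122 to 138 lower in PRA, and 68 to 75 higher and 121 to 134 lower in PRB. The median log2 difference lay between -0.13 and -0.10 in PRA and between -0.12 and -0.08 in PRB when a library was left out. It was -0.14 in PRA with a pseudocount of 0.1, -0.14 in PRA and -0.12 in PRB after median-ratio scaling, and -0.04 in PRA and -0.03 in PRB after quantile normalization. Quantile normalization also gave 83 higher and 111 lower in PRA and 86 higher and 112 lower in PRB, and it turned the sign of Zfp207 (-0.07 in PRA, -0.12 in PRB), Zfp740 (-0.19 in PRA), Zfp664 (-0.27 in PRB), Zfp445 (-0.18 in PRA), Zfp384 (-0.09 in PRA, -0.08 in PRB) and Zfp708 (0.02 in PRB).

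Under P4 the members lower in PRB numbered 16 after quantile normalization and 15 with the P4 libraries alone, and 13 to 38 when a library was left out, while those higher numbered 8 to 21. With oil the higher count was 0 with the oil libraries alone and 0 to 1 when a library was left out (0 without PRA oil replicate 3, PRB oil replicate 2 or PRB oil replicate 3), and the lower count 1 to 2 (2 without PRB oil replicate 1). For the difference of the responses, leaving out a library gave 3 to 3 higher and 0 to 2 lower. The cause of these moves was not tested.

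Same-numbered libraries deviated together only weakly: of 24 pairs, 6 had deviations that correlated above 0.1, with r between -0.229 and 0.312. In 8 of the 24 pairs the best partner had the same number. Replicate 4 correlated best with replicate 4 in every pair of groups except PRA P4 with PRB P4. The highest r, 0.312, was between replicate 4 of PRA oil and of PRB oil. The cause was not tested. With the replicate block, 3 members had a lower response in PRB. Of the 50 named members called in PRA and 56 in PRB, 43 and 46 kept the call and its direction under all 22 alternatives. Depth limits the members near 1 FPKM, and without fragment counts no interval for counting error is given.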
